A study of Mus musculus with 5 samples.

Results

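The RNA of Samd4 itself was among the RNAs listed as pulled down with Flag-SAMD4, at ratios over the IgG that were low for the list. Samd4, on the plus strand of chromosome 14 of the mouse, is named by 3 of the 673 intervals in the deposited table of enriched intervals, and these 3 were chosen by the gene name alone. Together they held 290 reads in the anti-Flag immunoprecipitation (IP) and 71 in the IgG control, a ratio of 4.08 (95% interval 3.14 to 5.37 from counting error). With the IgG reads scaled as the deposited p-values imply, the ratio was 2.50. All 3 ratios lay below 8.33, the median of the listed intervals. The table lists intervals that the authors had called as enriched. More IP than IgG reads is thus a condition of being listed and was not tested again. Samd4 is not in the shorter list of enriched genes that the study published, in which no gene has IgG reads.

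RNA immunoprecipitation collects a protein with the RNA attached to it, and the RNA is then sequenced. The cells were osteoblasts, the bone-forming cells, from the calvaria of Samd4PB/PB mice (FVB strain, postnatal day 5 to 7), homozygous for a piggyBac transposon in Samd4. They were immortalized with SV40 and infected with a lentivirus for Flag-tagged SAMD4. Both antibodies were used on these same Flag-Samd4-expressing cells, so there was no group without the construct and none with intact Samd4. From the cells came 2 IP libraries, 2 IgG libraries and 1 input library, and the labels do not say whether those of a group came from separate cultures. The table has 1 number of IP reads and 1 number of IgG reads for each interval, so neither the replicates nor the input could be compared. Whether the reads of both libraries of a group were added for this number is unknown, and the counting intervals take each number as a plain sum of reads. The antibody field of the IgG libraries also names Flag, with other catalogue numbers, and these libraries were taken as IgG from their titles. The depth of the libraries is unknown, so the ratios are not corrected for it. Of 11 osteoblast markers only Col1a1, the main collagen of bone, is listed, with 3 intervals, and a gene that is not listed has no value here.

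SAMD4 is the mammalian homolog of SMAUG, a Drosophila protein that binds short RNA hairpins through its sterile alpha motif (SAM) domain. SMAUG brings repressors of translation and enzymes that shorten the poly(A) tail to the mRNAs it binds, and so keeps them silent or leads to their decay. In this experiment the cells carry more than one possible source of Samd4 RNA. One is the disrupted gene, and the other is the lentivirus, which carries the open reading frame, which was cloned from cDNA and therefore has no introns.

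The listed intervals lie in 3 stretches of the gene, near its 5′ end and in its distal part. The gene, taken over all its transcripts in the table, runs from 47502529 to 47725492 on chromosome 14 of mm9, which is 222964 bases. The upstream interval lies from 47504074 to 47504691 and is 618 bases long. The middle interval lies from 47693471 to 47693823, with 353 bases, and the downstream interval from 47708719 to 47708845, with 127 bases. Between the upstream and the middle interval there are 188779 bases without a listed interval, and between the middle and the downstream interval 14895. In all, 1098 bases are covered, 0.492% of the gene.

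The transcripts of Samd4 start at very different places, and only some of them reach all intervals. The table has 15 Samd4 transcripts. The RefSeq transcripts NM_028966 and NM_001037221 start at 47502640, 1434 bases before the upstream interval. The RefSeq transcript NM_001163433 starts 116323 bases after the end of the upstream interval and so does not hold it. In total, 6 of the 15 transcripts start downstream of the upstream interval. The middle and the downstream interval are each overlapped by 13 transcripts.

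**Figure D1:**
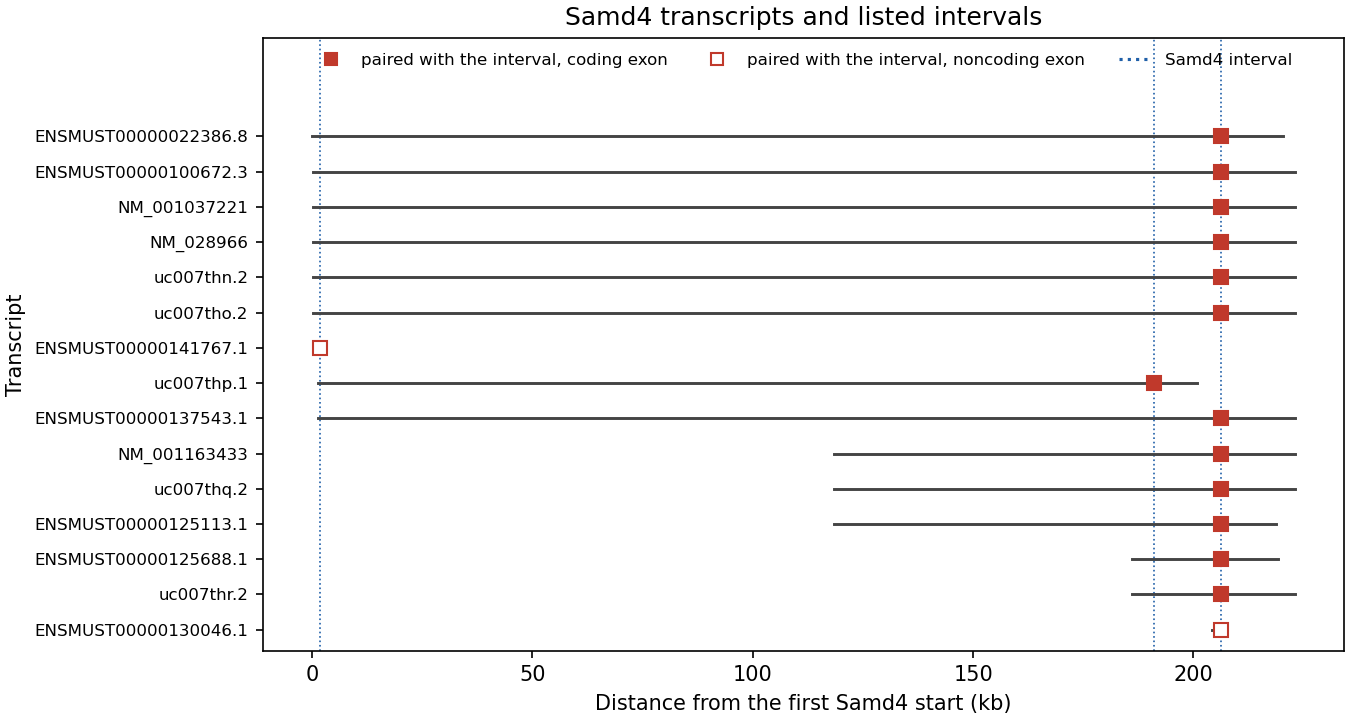
Each line is 1 of the 15 Samd4 transcripts of the table, drawn from its start to its end in kb from the first Samd4 start, dotted lines mark the 3 intervals, and a square marks the interval with which the table pairs the transcript (filled for a coding exon, open for a noncoding one). Of the 15 transcripts, 13 are paired with the downstream interval and 1 each with the upstream and the middle interval.

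The pairing of transcripts with intervals in the table limits what can be said of each interval. Each of the 4071 transcripts in the whole table is paired with exactly 1 interval. Of these, 519 overlap more than 1 listed interval, and 519 of 519 are paired with the one at the highest coordinate. At Samd4, 9 transcripts overlap the upstream interval, but only ENSMUST00000141767.1, which ends inside it, has lines there. The middle interval has lines for uc007thp.1 alone, which ends before the downstream interval. Whether the other 8 transcripts at the upstream interval and the other 12 at the middle interval have exons there was not analysed here. Further enriched stretches of Samd4 upstream of the last interval may also be missing from the table, so 3 is the number listed and not the number that may exist.

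The downstream interval coincides with 1 coding exon. Its 127 bases are the whole of this exon, from first to last base, in 12 transcripts, including NM_028966, NM_001037221 and NM_001163433. It has 0 intron bases, although the exon lies between introns of 1083 and 6920 bases in ENSMUST00000022386.8, 1 of these transcripts. In the noncoding transcript ENSMUST00000130046.1, which ends inside the exon, 58 of the bases are exon and 69 lie beyond the end. Intervals that coincide at both ends with an exon were 49 of the 673 listed (7.28%).

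The middle interval is mostly a coding exon and runs on into the intron before it. It covers all 313 bases of the exon of uc007thp.1, which are coding, and 40 bases of the preceding intron, which is 7361 bases long. It stops at the last base of the exon and takes 0 of the 3358 bases of the next intron. The intron bases are 11.3% of this interval. Among all listed intervals, 333 (49.5%) had intron bases by the same count, in the transcript with the most coding bases, with a median share of 30.0% among these. Thus the intron part of the middle interval was small for an interval with any.

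The upstream interval starts at the first base of an exon. The exon is the last of the noncoding transcript ENSMUST00000141767.1, of which 248 bases lie in the interval, and the other 370 bases lie beyond the end of this transcript. Of the preceding intron of 756 bases, 0 are covered. All 3 Samd4 intervals meet an exon edge exactly at 1 end or both, as do 291 of the 673 listed (43.2%).

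**Figure D2:**
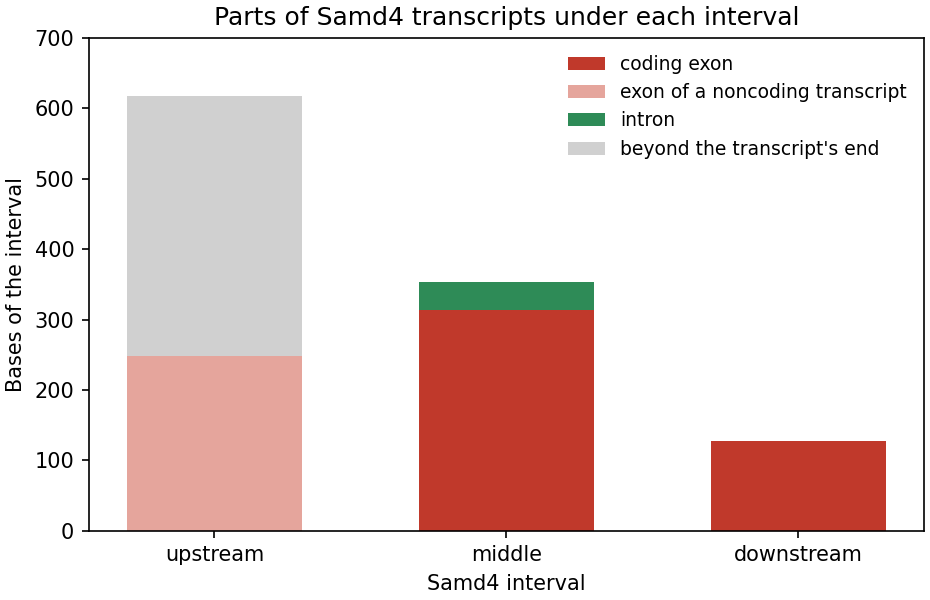
Stacked bars give the bases of each Samd4 interval by part of the transcript, in the paired transcript with the most coding bases. The 127 bases of the downstream interval are all coding exon, the middle interval has 313 coding and 40 intron bases, and the upstream interval has 248 noncoding exon bases and 370 beyond the transcript's end.

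Within the transcripts used, the 3 intervals held more exon than intron bases. In the transcripts with the most coding bases, 440 bases were coding, 248 were exon of a noncoding transcript, 40 were intron and 0 were UTR. The other 370 of the 1098 bases lie beyond the transcript of the upstream interval and were not classified. The intron bases were 5.49% of the 728 bases that lie within these transcripts. The 5 introns next to these exons add up to 19478 bases, of which 0.205% were covered. No line of Samd4 in the table marks a 5′ or 3′ UTR, while 372 of the 673 listed intervals (55.3%) have a 5′ UTR line. The UTRs of the transcripts that also overlap the upstream interval were not analysed here, for the reason given above.

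These bases bear on the source of the RNA only in part. Coding bases can come from the lentiviral open reading frame or from the disrupted gene, and on them the 2 sources cannot be told apart. The 2 need not be equal in amount. In tibia of Samd4PB/PB mice the study reported strongly reduced Samd4 transcript by quantitative PCR, and no SAMD4 protein on western blot. How much RNA each source gave in the cells used here was not tested. The 40 bases are intron in uc007thp.1, and as such are not part of an open reading frame cloned from cDNA. Whether they are exon in the other 12 transcripts at the middle interval was not analysed here. Reads on the 40 bases are not counted apart from those on the 313 coding bases. How many of the reads of the middle interval fell on the 40 bases was therefore not tested. The position of the transposon is not given as a coordinate, and the place of the intervals relative to it was not analysed here.

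The middle interval had the most reads from both antibodies. The IP gave 124 reads there (103 to 148, 95% Poisson interval) and the IgG gave 37 (26.1 to 51.0). For the upstream interval the numbers were 87 in the IP (69.7 to 107) and 15 in the IgG (8.40 to 24.7). For the downstream interval they were 79 (62.5 to 98.5) and 19 (11.4 to 29.7). The counting intervals of the IP reads overlap widely between the upstream and downstream intervals. The median listed interval had 74 IP and 6 IgG reads. Thus the Samd4 intervals were close to it or above it in IP reads, and each was above it in IgG reads.

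Per length, the order of the intervals changed. The downstream interval had 622 IP reads per kb, the middle interval 351 and the upstream interval 141, against a median of 186 over the listed intervals. IgG reads per kb followed the same order, with 150, 105 and 24.3, against a median of 16.0. From the lowest to the highest of the 3 intervals, density rose 4.42-fold in the IP and 6.16-fold in the IgG. The downstream interval was rank 115 by IP reads per kb and rank 76 by IgG reads per kb among the 673.

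**Figure D3:**
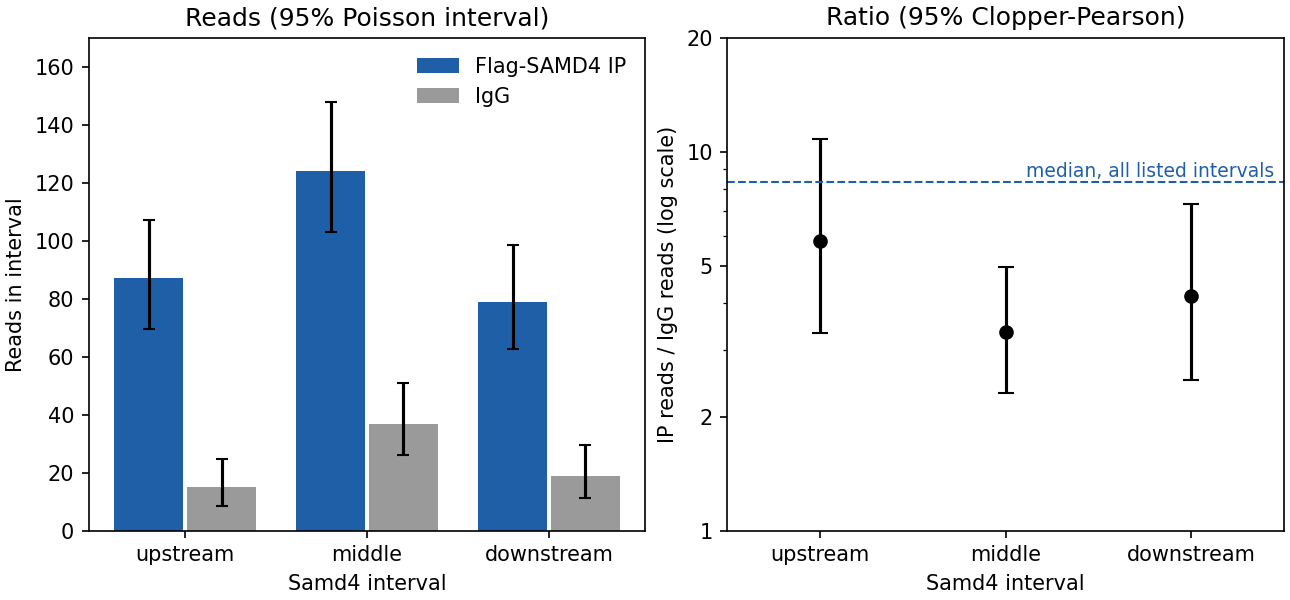
Left, reads of the Flag-SAMD4 IP (blue) and the IgG (grey) in each Samd4 interval, with 95% Poisson intervals. Right, the ratio of IP to IgG reads on a log scale with 95% Clopper-Pearson intervals, where the ratios run from 3.35 to 5.8 and the dashed line marks the median of all listed intervals, 8.33.

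Relative to the IgG, IP reads were 5.8-fold in the upstream interval (95% Clopper-Pearson interval 3.33 to 10.8), 4.16 in the downstream interval (2.50 to 7.27) and 3.35 in the middle interval (2.30 to 4.98). With scaled IgG reads the values were 3.54, 2.54 and 2.05 in the same order. Depth is a common factor of all intervals of a library and cancels when intervals are set against each other. The ratio of the upstream interval was 1.73 times that of the middle interval (95% interval 0.862 to 3.61, exact p = 0.114, Benjamini-Hochberg adjusted p = 0.341 over the 3 pairs, by Fisher's two-sided test). It was 1.39 times that of the downstream interval (0.623 to 3.16, exact p = 0.453, adjusted p = 0.537). The middle interval had 0.807 times the ratio of the downstream interval (0.408 to 1.56, exact p = 0.537, adjusted p = 0.537). No pair differed beyond counting error, and the intervals leave room for a more than 3-fold difference between the upstream interval and either of the others. These tests compare the sequenced libraries and not cultures.

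Among the listed intervals the Samd4 ratios stood low. By ratio, the upstream interval was rank 457, the downstream interval rank 555 and the middle interval rank 609 of 673, counted from the highest. The lowest listed ratio was 2.47 and the lower quartile was 5, and the downstream and middle intervals lie below that quartile. Of the Samd4 intervals, 0 of 3 reached a ratio of 10, which 44.7% of all listed intervals did. A ratio of 5 was reached by 1 of 3, the upstream interval, and by 75.8% of all. With 3 intervals in 1 gene, these shares describe the gene and were not tested.

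**Figure D4:**
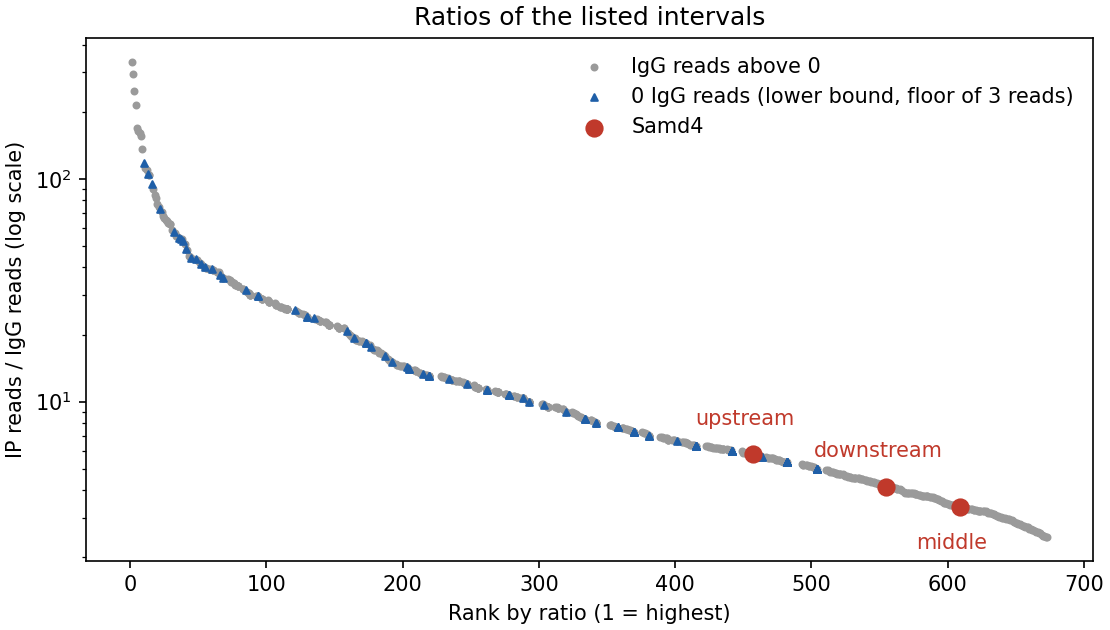
The ratio of IP to IgG reads (log scale) of the 673 listed intervals is plotted against its rank, with the 97 intervals without IgG reads (triangles) placed at the lower bound given by a floor of 3 IgG reads. The Samd4 intervals (red) are at ranks 457, 555 and 609.

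Intervals with a like number of IP reads gave a similar picture. Of 221 listed intervals with IP reads within 1.5-fold of those of the upstream interval, 92 had a lower ratio, and the median ratio was 6.7. For the downstream interval, 37 of 220 had a lower ratio (median 6.95), and for the middle interval 29 of 182 (median 7.86). Each Samd4 ratio was thus below the median of intervals as deep as itself, although the 95% intervals of the upstream and downstream ratios include it.

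Next to the middle interval in the order of ratios stood intervals of genes of different kinds. Among the 261 listed intervals with at least 100 IP reads it was rank 202. Col5a2, a fibrillar collagen chain, stood shortly above it at 3.41 (2.31 to 5.16), from 116 reads in the IP and 34 in the IgG. An interval shared by Atp5b, a subunit of the mitochondrial ATP synthase, Baz2a and SNORD59 stood shortly below with 190 and 57 reads (ratio 3.33). Cherp had 100 and 30 reads (ratio 3.33), and the interval of Epo and Gnb2 had 137 and 41 (ratio 3.34). The other neighbours, named C230081A13Rik and mmu-mir-2134-4, and AC113316.1 and Cdk8, were far deeper, with 309916 and 134278 IP reads at ratios of 3.40 and 3.37. These 6 were chosen for their nearness in ratio.

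Most genes of a partner list drawn up around SMAUG proteins and SAMD4 have no listed interval and so no value here. Its 61 genes are for deadenylation, decapping, repression of translation, Argonaute, CELF1 and other RNA-binding proteins, 14-3-3 proteins and the mTORC1 pathway. It also holds general factors of translation initiation, among them Eif4a1 and Eif4g1. Of the 61 genes, 4 have listed intervals. All listed intervals together carry 753 gene names. The share of all genes that is listed is unknown here, so 4 of 61 cannot be called few or many. Of the 5 intervals of these 4 genes, 1 reached a ratio of 10, against 44.7% of all listed intervals. Cnot1, the scaffold of the CCR4-NOT deadenylase, had 119 IP and 23 IgG reads, which is 1.27 times the summed ratio of Samd4 (95% interval 0.740 to 2.23). Eif4g1, the scaffold of the cap-binding complex, had 170 and 39 reads over 2 intervals (1.07 times Samd4, 0.678 to 1.70). Ywhag, a 14-3-3 protein, had 51 and 8 (1.56 times Samd4, 0.693 to 3.98). None of these 3 intervals excludes the ratio of Samd4. Eif4a1, the helicase of translation initiation, had 58 IP and 0 IgG reads, and the lower 95% limit of the quotient of its ratio over that of Samd4 was 3.60.

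The genes on which the study went on to work stood well above Samd4. Errfi1 (Mig6), an inhibitor of the EGF receptor, had 77 IP and 0 IgG reads, and Tnfrsf12a, the TWEAK receptor, 42 and 0. The lower 95% limits of the quotients of their ratios over the summed ratio of Samd4 were 4.82 and 2.58. Both come from a list of the study in which no gene has IgG reads. A ratio above that of Samd4 was thus set by the choice of these genes. The limits describe counting error, support nothing further, and the difference was not tested. Samd4 thus had more IP reads than either gene, with 290 over 3 intervals, but also 71 reads in the IgG.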

How the data were processed

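RNA immunoprecipitation and sequencing were done by the authors on Flag-Samd4-expressing Samd4PB/PB osteoblasts, and libraries were grouped by their titles. According to the submitters' processing notes, reads were mapped by TopHat2 2.0.9 onto mm9. What program found the intervals is unknown here. For each of 673 intervals, in 16285 lines, the authors deposited the IP and the IgG read count, their fold with its p-value and q-value, and the overlap in bases. The deposited fold equals the IP count over the IgG count plus 1 in 673 intervals. The deposited p-value was used only to find that the IgG count had been multiplied by 1.64, which gives the p-value of 561 of 575 intervals within a relative tolerance of 0.0001. The p-values, q-values and folds of the authors' own comparison were not used otherwise.

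All intervals named Samd4 were taken, and starts were converted to count from 1. Bases of exon, coding sequence, UTR and intron were counted per transcript from the table's region columns, where 1975 lines only touch their interval and add no bases. Counts were given 95% Poisson intervals, ratios 95% Clopper-Pearson intervals, and an interval without IgG reads was set to 3 as a floor. These cover counting error only. Pairs of Samd4 intervals were tested by Fisher's exact test, two-sided, with p-values adjusted by Benjamini-Hochberg (threshold 0.05). Quotients of ratios between genes are exact conditional odds ratios. The search for the factor on the IgG count, the intervals of ratios and Fisher's test were tested on simulated data. The counting of bases and the ranks were not. Python 3.11.15, pandas 2.3.3, numpy 2.4.6 and scipy 1.17.1 were used. Members, gene lists and comparisons were chosen with earlier results of these data known. The genes named beyond Samd4 are the 3 neighbours on each side by ratio, the listed members of the partner list, the osteoblast markers, and, added after their values were seen, Errfi1, Tnfrsf12a and the genes with at least 3 intervals. Alternatives changed the fold, the floor, the scale of the IgG reads, the intervals summed or ranked, the adjustment and the transcript. No genome or protein sequence was used here.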

Additional observations from a re-analysis of the deposited data

How the results depend on the processing

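No paired analysis was possible because the deposited columns hold 1 value for the IP and 1 for the IgG, and not those of the numbered libraries. For the same reason no library could be left out. Of 17 alternatives, 14 left the result within its error or on its side of the threshold, and 3 did not. With a fold of 5 in place of 10, 1 of the 3 Samd4 intervals counted. When IgG reads were scaled as the deposited p-values imply, the summed ratio was 2.50 in place of 4.08, and every interval with IgG reads falls by the same factor. With RefSeq transcripts alone, the intron share was 0% in place of 5.49%, because the table pairs RefSeq transcripts of Samd4 with the downstream interval alone. Leaving out the upstream, the middle or the downstream interval gave summed ratios of 3.63, 4.88 and 4.06. The median rank lay between 81.6% and 86.5% from the top. The lowest adjusted p between Samd4 intervals was 0.341 with the Holm adjustment and 0.193 with scaled IgG reads (exact tests). The latter enters scaled reads as if they were counted, which lowers p without adding reads, and supports nothing. With 15 to 37 IgG reads per interval, only large differences in ratio along the gene could have been seen.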

Other observations

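Samd4 is 1 of 17 gene names with at least 3 listed intervals, and of the 14 that lie on 1 chromosome its intervals are the most widely spread. They run over 205 kb from first to last base, against a median of 19.6 kb over the other 13. Such a span is limited by the length of the gene, 222964 bases for Samd4, and the lengths of the other genes were not compared. By summed ratio Samd4 was rank 8 of these 14, with 4.08 against a median of 4.45. Its highest ratio was 1.73 times its lowest, which is rank 12 of 14 by this measure. Lmna, which encodes the nuclear lamins A and C, had the widest range, with ratios from 6.08 to 53.5. Fbln2, an extracellular matrix protein, had the narrowest, with 2.72 to 2.79. Over their 3 intervals Lmna had 28 IgG reads, Samd4 71 and Fbln2 867. With few IgG reads a ratio is less certain, and differences in range between genes were not tested. The pairing of each transcript with 1 interval holds for these genes as well, so their numbers of intervals are those listed.

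The nearest other listed interval on chromosome 14 belongs to Cnih and lies 94.5 kb before the first Samd4 start. It had 23 IP reads and 1 IgG read (ratio 23, 95% interval 3.73 to 947). In all, 29 listed intervals are on this chromosome.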
